A study of Mus musculus with 12 samples.

Results

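Open chromatin was examined at 9 genes of the neural progenitor program, Pax6, Sox2, Nes, Hes1, Hes5, Eomes, Neurog2, Vim and Mki67, in primary mouse cortical neurons. The peaks of all 12 libraries were merged where they overlapped by 1 bp or more, and each merged region that lay in one of these genes (GENCODE vM21 annotation, GRCm38) or within 20 kb on either side was taken. This gave 107 of the 263785 regions of the series. ATAC-seq marks open chromatin with the transposase Tn5, which inserts sequencing adapters where DNA is accessible. All cultures came from wild-type C57BL/6 embryos at embryonic day 18, with 3 libraries in each of 4 groups, and the labels place them in batch 1. The PBS group received buffer for 7 days. The PFF group received pre-formed fibrils for 7 days, which per the study's methods were assembled from human wild-type α-synuclein. The PFF+MLi-2 group received fibrils for 7 days and MLi-2, which inhibits the kinase LRRK2, over the last 5 days. The PFF+Rab5 ASO group received fibrils for 7 days and antisense oligonucleotides against Rab5, a GTPase of early endosomes, over the last 3 days. No library had MLi-2 or the oligonucleotides without fibrils, so each added agent was seen only on top of fibrils. A control oligonucleotide was in no library, with or without fibrils. Whether the proliferation inhibitor that the methods name for neuron-enriched cultures was used for these libraries is not given in the sources used here.

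The cortex is built from radial glia, which divide along the ventricle and give rise to neurons either directly or through intermediate progenitors. Pax6 and Sox2 are transcription factors of radial glia, and Nes (nestin) and Vim (vimentin) are intermediate filament proteins of these cells. Notch signalling keeps radial glia undifferentiated through the transcription factor RBPJ and the repressors Hes1 and Hes5, which hold back proneural factors such as Neurog2. Neurog2 drives neuronal differentiation, Eomes (also called Tbr2) marks intermediate progenitors, and Mki67 encodes the Ki-67 protein of dividing cells. In postmitotic neurons most of these genes are expressed at low levels, but an accessible promoter does not by itself show transcription, and no RNA was used here.

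Sequences are shown for 3 regions and 1 promoter that the results below turn on, with capitals for a match on either strand to any of 5 short motifs. The motifs were TGGGAA (core of the RBPJ site), CAGCTG and CAGATG (E-boxes bound by proneural factors), CACNAG (the N-box bound by Hes factors) and ACAAAG (core of the SOX site), and no match in these sequences overlapped another. The first is a promoter-proximal region of Neurog2, Neurog2 region 3, given as 300 bases around its summit at chr3:127632629-127632928. The second, Neurog2 region 5 at chr3:127633855-127634042, had a peak in every PFF library and in no PFF+MLi-2 library. The third is the promoter of Hes5 from RefSeq (GRCm38.p6), 250 bases before to 50 after the start, at chr4:154960673-154960972, in which the RBPJ core occurs at 2 places. The fourth is Nes region 8, in the second intron of Nes, at chr3:87974378-87974605. All are on the plus strand of GRCm38, which is the coding strand of the 3 genes.
Neurog2 region 3: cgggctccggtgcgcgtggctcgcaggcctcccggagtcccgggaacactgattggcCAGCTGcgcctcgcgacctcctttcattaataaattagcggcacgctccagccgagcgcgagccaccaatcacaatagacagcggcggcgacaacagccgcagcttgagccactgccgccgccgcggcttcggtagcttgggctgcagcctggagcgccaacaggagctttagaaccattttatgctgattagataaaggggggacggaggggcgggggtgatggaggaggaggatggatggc
Neurog2 region 5: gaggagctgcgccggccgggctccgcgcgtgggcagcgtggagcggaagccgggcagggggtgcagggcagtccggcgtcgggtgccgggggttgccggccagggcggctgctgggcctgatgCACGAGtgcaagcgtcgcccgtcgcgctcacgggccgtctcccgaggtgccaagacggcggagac
Hes5 promoter window: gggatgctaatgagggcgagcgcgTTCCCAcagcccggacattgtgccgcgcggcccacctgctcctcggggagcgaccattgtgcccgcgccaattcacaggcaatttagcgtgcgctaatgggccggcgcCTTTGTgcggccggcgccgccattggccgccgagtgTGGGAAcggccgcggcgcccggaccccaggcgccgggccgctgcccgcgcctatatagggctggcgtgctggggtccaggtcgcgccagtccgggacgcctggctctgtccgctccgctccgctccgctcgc
Nes region 8: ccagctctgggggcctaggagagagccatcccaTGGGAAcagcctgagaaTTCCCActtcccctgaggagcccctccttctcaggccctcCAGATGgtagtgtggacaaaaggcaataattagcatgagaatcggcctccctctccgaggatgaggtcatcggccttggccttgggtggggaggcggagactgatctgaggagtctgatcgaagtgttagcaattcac

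The shares with a motif were near those of all open regions or below them. Of 300-base windows centred on the summits of the 107 regions, 29.0% held the RBPJ core, against 27.9% of the windows of all regions. The E-box CAGCTG was in 18.7% against 21.8% and the E-box CAGATG in 20.6% against 28.7%. The N-box was in 47.7% against 46.3%, and the SOX core in 21.5% against 23.0%. RefSeq promoter windows were found for 8 of the 9 genes, the exception being Hes1. The RBPJ core was in 1 of their 9 windows (Pax6 has 2), that of Hes5, against 25.6% of all promoter windows. Neither E-box was in any of the 9, against 16.3% for CAGCTG and, of all promoter windows again, 17.2% for CAGATG. The N-box was in 4 of the 9 windows and in 42.5% of all, and the SOX core was in 3 of the 9 and in 18.7% of all. The regions were richer in G and C than most. Their median GC content was 56.3%, against 47.3% over all regions, and reached 68.2% for Eomes, 66.0% for Neurog2 and 63.8% for Hes1, with Vim lowest at 46.0%. The median ratio of observed to expected CpG was 0.49, against 0.22 over all regions.

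The libraries held 137417 to 184717 peaks. Their relative depth was the most common background value in each peak list divided by the narrowest peak width, set to a mean of 1. It ran from 0.775 to 1.31. It was lowest in PFF (0.843 ± 0.0723, SD, n = 3) and highest in PFF+Rab5 ASO (1.22 ± 0.147, SD, n = 3), and the narrowest peaks were 53 to 59 bp wide in the PFF+Rab5 ASO libraries against 62 to 66 bp in the others. Depth and the narrowest peak width, which enters the depth value, thus moved with that group. Their part in the results below was not tested. Each library had a peak in 55 to 73 of the 107 regions, on average 62.0 ± 7.00 in the PBS group, 66.0 ± 6.08 in the PFF group, 62.7 ± 0.577 with MLi-2 and 66.7 ± 5.51 with the Rab5 ASO (mean ± SD, n = 3). Fewer cells with an open region and less opening per cell cannot be told apart in these bulk libraries.

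The number of regions differed widely between the genes. Sox2 had 25 regions, Pax6 17, Nes 16, Hes5 13, Neurog2 9, Hes1 8, Vim 7, and Eomes and Mki67 6 each. By position, 27 lay within 1 kb of an annotated start site of their gene, 9 in introns, 2 in exons, 32 upstream and 37 downstream. Of the 107, 44 (41.1%) had a peak in all 12 libraries, against 27.5% of all regions, and 25 (23.4%) had a peak in 1 library, against 26.6%. Hes1 and Hes5 had the most constant regions, with 6 of 8 and 8 of 13 called in all 12 libraries, whereas the share was lowest at Sox2 (7 of 25) and Pax6 (5 of 17). All Sox2 regions overlapped the long noncoding gene Sox2ot, which spans the Sox2 locus.

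**Figure D1:**
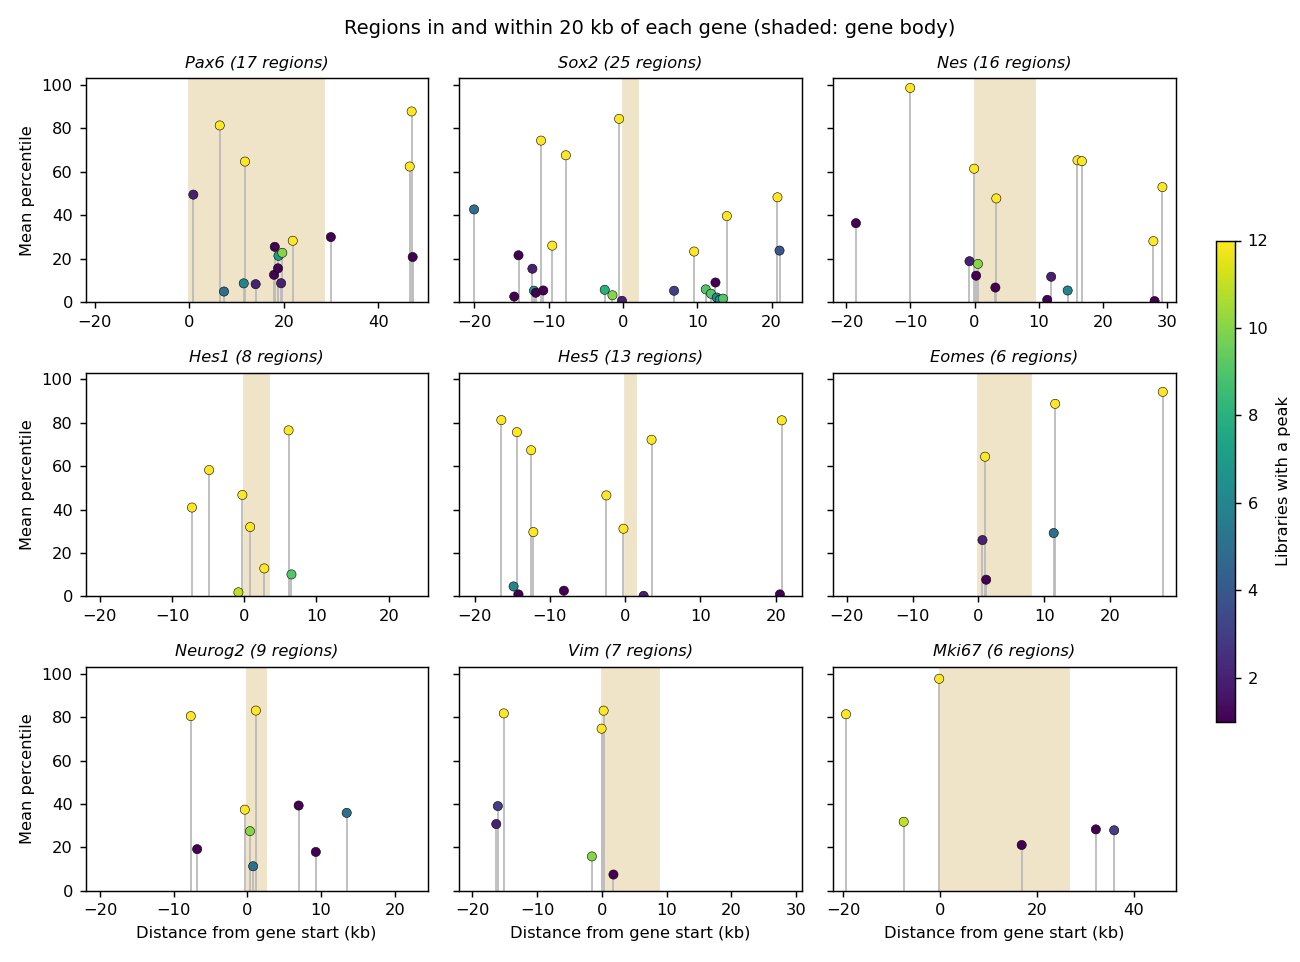
Each point is a region, placed by the distance of its summit from the gene start in kb (negative is upstream) and, on the vertical axis, by its mean peak-height percentile over the libraries with a peak there. Colour gives the number of libraries with a peak and shading the gene body; every gene has at least 1 promoter region and 1 region outside it called in all 12 libraries, and Sox2 has the most regions (25).

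Peak height is given here as the percentile of a peak's fold enrichment among all peaks of the same library, averaged over libraries with a peak. All 9 genes had a promoter region with a peak in every library of every group, as 62.8% of 21938 protein-coding genes did by the same rule. The Mki67 promoter (Mki67 region 4, chr7:135716178-135716834) was the highest, with a mean percentile of 97.7 and values from 95.3 to 99.0. It was followed by Sox2 (region 13, 84.4), Neurog2 (region 6, 1.15 kb past the start, 83.1), Vim (region 6, 83.0) and Pax6 (region 2, at an internal start site, 81.3). These 4 overlapped one another across libraries, so their order is not resolved. Eomes (region 2, 64.3) and Nes (region 4, 61.4) came next, then Hes1 (region 4, 46.7), and Hes5 (region 9, 31.2) was lowest. Neighbours in this lower part of the order also overlapped across libraries. The median of the 72465 regions called in all 12 libraries was 73.7, and that of the 18389 of them near a protein-coding start site was 84.8. Taking the highest promoter region of each protein-coding gene called in all 12, as for these 9, the median was 92.4, against 81.3 for the 9.

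Fold enrichment is a ratio to the local background, and the promoters differed in both terms. The Hes5 promoter had 43 to 57 overlapping fragments at its summit over a background of 9.54 to 11.2, and the Hes1 promoter 42 to 53 over 7.75 to 9.36. The Mki67 promoter had a similar 45 to 55 fragments over a background of only 2.71 to 3.28. The Eomes promoter stood at the other end, with 12 to 20 fragments over 1.57 to 2.11. A low percentile at Hes1 and Hes5 therefore stood beside many fragments at the summit.

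**Figure D2:**
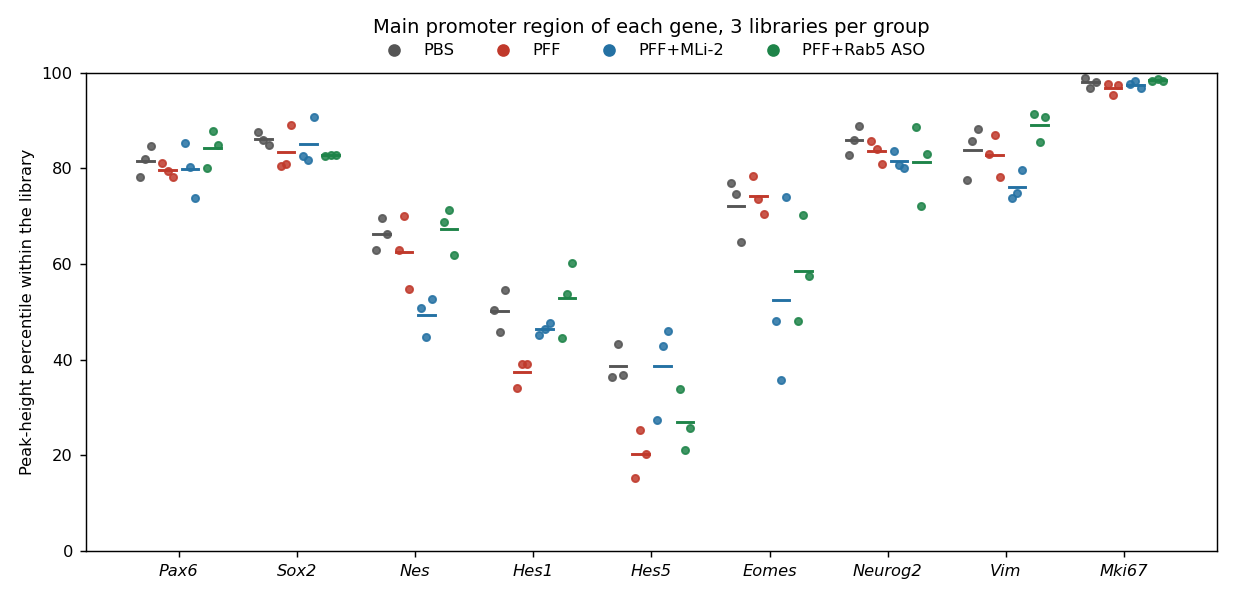
Peak-height percentile within the library (vertical axis) of the main promoter region of each gene; points are libraries and bars the mean of the 3 libraries of a group. Mki67 stays above 95 in every library, and the PFF libraries lie below the PBS libraries without overlap at Hes1 and Hes5.

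Outside the promoters, Eomes region 6 had a mean percentile of 94.2 but lies at the start of the neighbouring gene Golga4, which encodes a Golgi protein. Pax6 region 16 (87.8), downstream of Pax6, lies within Elp4, whose introns are known to hold Pax6 enhancers. The highest such regions of Vim (region 3, 81.8), Mki67 (region 6, 81.4), Hes5 (region 1, 81.3) and Neurog2 (region 1, 80.5) were all upstream of their genes. Hes1 region 7 (76.5) was downstream and Sox2 region 7 (74.4) upstream. Sox2 region 7 lies within 1 kb of start sites of other genes, among them the noncoding genes Sox2ot and Mir1897. All of these had a peak in every library.

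The cell type was checked by the promoters of marker genes. All 15 markers of postmitotic cortical neurons had a promoter peak in all 12 libraries, with a median percentile of 78.0, from 14.3 at Slc17a7 to 98.7 at Syn1. Of 9 astrocyte markers, 1 of which (Fgfr3) is also on the list of radial glia genes, 5 were called in all 12 libraries, and of 8 oligodendrocyte lineage markers 4. None of the 8 microglia markers was, and Aif1, Cx3cr1, Trem2 and Spi1 had no promoter peak in any library. The other 4 microglia promoters were called in 3 to 7 libraries, and Alb, Myod1, Ins2 and Pou5f1, genes not expressed in brain, in 1 to 7. The calls of these microglia promoters moved with the group. Of 12 possible calls (4 promoters in 3 libraries) the PFF libraries made 10, those of PBS 4, those of MLi-2 treatment 4 and those of the Rab5 ASO 3. For the genes not expressed in brain the numbers were 5, 3, 2 and 6 in that order. Csf1r, Tmem119 and C1qa were each called in 3 of 3 PFF libraries but in 1 of 3 PBS and 1 of 3 PFF+MLi-2 libraries. The part of microglia in the differences that involve PFF was not tested. Of the 6 vascular and fibroblast markers 3 were called in all 12. Open promoters of progenitor genes thus stood beside open promoters of neuronal genes in the same cultures, and whether they came from the same cells was not tested.

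Promoters of related genes are read beside all protein-coding genes, of which 62.8% had a promoter peak in all 12 libraries, with a median percentile of 92.4. All 15 other radial glia and neural stem cell genes had a promoter peak in all 12 libraries, with a median percentile of 75.5, from 57.5 at Prom1 (the membrane protein prominin) to 93.1 at Id4. All 12 Notch pathway genes did, with a median of 74.9, from 11.7 at Lfng, which modifies Notch receptors, to 97.9 at Numb, an inhibitor of Notch. Of 9 intermediate progenitor genes 8 did, with a median of 84.2, from 60.7 at Gadd45g to 91.2 at Elavl2 and Sstr2, while Neurod4 had no promoter peak in any library. The 15 cell cycle genes, all called in 12 libraries, had the highest median of the 4 lists, 96.6, which alone lay above that of protein-coding genes, from 58.4 at Aurkb and Ccnd2 to 99.9 at Bub1.

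**Figure D3:**
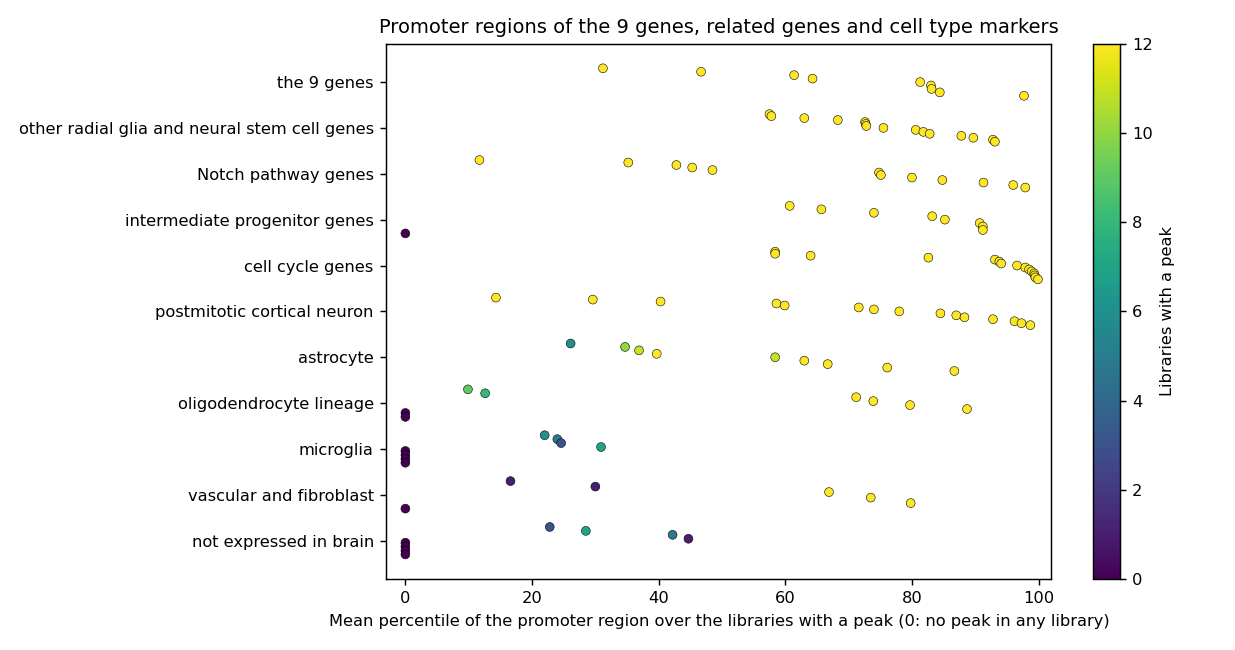
Each point is the promoter region of 1 gene, with its mean peak-height percentile on the horizontal axis and the number of libraries with a peak as colour; genes with no promoter peak are drawn at 0. Progenitor and neuronal genes are called in 12 libraries almost throughout, whereas promoters of microglia genes and of genes not expressed in brain are called in at most 7.

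The first comparison asked what fibrils alone changed. No region of the 9 genes was gained (peak in 3 of 3 PFF and 0 of 3 PBS libraries) or lost (the opposite) among the 89 with a peak in either group, where the shares over all regions were 1.10% gained and 0.405% lost. Height was tested in the 44 regions called in all 12 libraries with limma on normal scores of each library's ranks, so that differences are in SD units of the height distribution. With adjustment over all 72465 regions, limma called 0 of 44 (background 0% higher and 0% lower), and 6 of 44 had an unadjusted p under 0.05, against 9.72% of all regions. The median difference was -0.17 in the 44 and -0.02 over all regions. In 9 of the 44 every PFF library lay below every PBS library (background 6.38%), and in 4 every PFF library lay above (background 8.25%).

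Hes1 and Hes5, the repressors downstream of Notch, were among the lower ones at their main promoter regions, but not in all their regions. Hes5 region 9 had percentiles of 36.3, 43.3 and 36.7 in PBS and 15.3, 25.3 and 20.3 in PFF. The groups did not overlap, with a difference of -0.52 SD (SE 0.224, limma adjusted p = 0.489). Hes1 region 4 had 50.5, 45.7 and 54.5 in PBS and 34.0, 39.2 and 39.1 in PFF. Here too all PFF libraries were below all PBS libraries, by -0.42 SD (SE 0.218, limma adjusted p = 0.581). Neither difference passed the test. Hes1 region 6, also within 1 kb of a Hes1 start site, was higher instead, with 6.32, 3.54 and 3.90 in PBS and 25.3, 27.1 and 11.1 in PFF. The groups did not overlap there, and its difference of 0.59 SD (SE 0.207, limma adjusted p = 0.399), which did not pass either, had the smallest p of the 44. Promoters of marker genes spread as widely. For the 5 astrocyte markers called in all 12 libraries the differences ran from -0.59 SD at Gfap to 0.39 SD at S100b, with a median of -0.17 and 3 of 5 below 0. For the 15 neuronal markers they ran from -0.54 SD at Bcl11b to 0.27 SD at Dcx, with a median of -0.10 and 11 of 15 below 0. None of these was called by limma. Hes5 regions 1, 5 and 13, which flank the gene at distances of 12 to 21 kb, were also lower without overlap, but Hes5 region 8, 2.5 kb upstream, was higher (39.0 in PBS and 55.7 in PFF on average, limma adjusted p = 0.529).

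The largest difference between PFF and PBS was upstream of Neurog2. Neurog2 region 1 had percentiles of 83.6, 92.7 and 90.8 in PBS and 79.7, 82.6 and 58.0 in PFF. The groups did not overlap, 1 PFF library being far below the other 2, and the difference was -0.84 SD (SE 0.307, limma adjusted p = 0.414). Vim region 5, next to the Vim start site, had 80.2, 79.5 and 77.8 in PBS and 67.8, 65.2 and 73.6 in PFF, a difference of -0.52 SD (SE 0.221, limma adjusted p = 0.484). Sox2 region 10 and Mki67 region 6 were the remaining regions that were lower without overlap, and Nes region 13 and Sox2 region 9 were higher. Nes region 8, an intronic region, had the second largest difference in size, at 63.5, 69.8 and 47.6 in PBS and 36.7, 54.1 and 38.9 in PFF (-0.61 SD, SE 0.273, limma adjusted p = 0.509), with 1 library of each group overlapping. At the main promoters of Pax6, Sox2, Nes, Eomes, Neurog2, Vim and Mki67 the PFF and PBS libraries overlapped.

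The second comparison asked what inhibition of LRRK2 changed in fibril-treated neurons, and shares its PFF libraries with the first. Of 88 regions 1 was gained and 1 lost, each 1.14%, against 0.374% gained and 1.64% lost over all regions. The gained one was Nes region 11 (chr3:87985536-87985733), 14.5 kb downstream of the Nes start, with percentiles of 0.959, 1.49 and 1.01 in PFF+MLi-2, no peak in PFF, and a peak in 2 of 3 PBS libraries. These are among the lowest peaks of their libraries. The lost one was Neurog2 region 5, 774 bp into Neurog2, with 10.5, 25.4 and 4.79 in PFF, no peak in PFF+MLi-2, and 1 peak of 3 in both PBS and PFF+Rab5 ASO. It too was a low peak, of 13 to 17 fragments.

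By height limma called 0 of 44 (background 0% higher and 0% lower), and 5 of 44 had an unadjusted p under 0.05, against 11.4% of all regions. The median difference was 0.11 in the 44 and 0.01 over all regions. In 5 of the 44 every PFF+MLi-2 library lay above every PFF library (background 5.23%), and in 2 every one lay below (background 12.9%). Both Notch effector promoters were among the 5. Hes5 region 9 had percentiles of 27.3, 42.9 and 45.9 in PFF+MLi-2, all above the PFF values, by 0.63 SD (SE 0.215, limma adjusted p = 0.344). Hes1 region 4 had 45.2, 46.5 and 47.7, again all above PFF, by 0.43 SD (SE 0.193, limma adjusted p = 0.440). Since the same 3 PFF libraries stand on the low side of both comparisons, the MLi-2 difference is no independent sign of the fibril difference.

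Nes region 8, in the second intron, differed most between these groups. It had percentiles of 36.7, 54.1 and 38.9 in PFF and 56.1, 65.0 and 69.4 in PFF+MLi-2. The groups did not overlap, and the difference was 0.81 SD (SE 0.229, limma adjusted p = 0.282). The PBS libraries spanned the whole PFF+MLi-2 range, and 2 of the 3 PFF libraries lay below all of them. The Nes promoter (region 4) went the other way, with 63.0, 70.0 and 54.8 in PFF and 50.8, 44.8 and 52.6 in PFF+MLi-2. The 2 regions of 1 gene thus differed in sign, and neither passed the test. Sox2 region 10 and Hes1 region 2 completed the 5 that were higher. Nes region 13 was the other that was lower by percentile, but its tested difference was only -0.08 SD (SE 0.183, limma adjusted p = 0.895). Percentiles rank a peak among all peaks of its library, whereas the test ranks only the regions called in all 12 libraries.

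**Figure D4:**
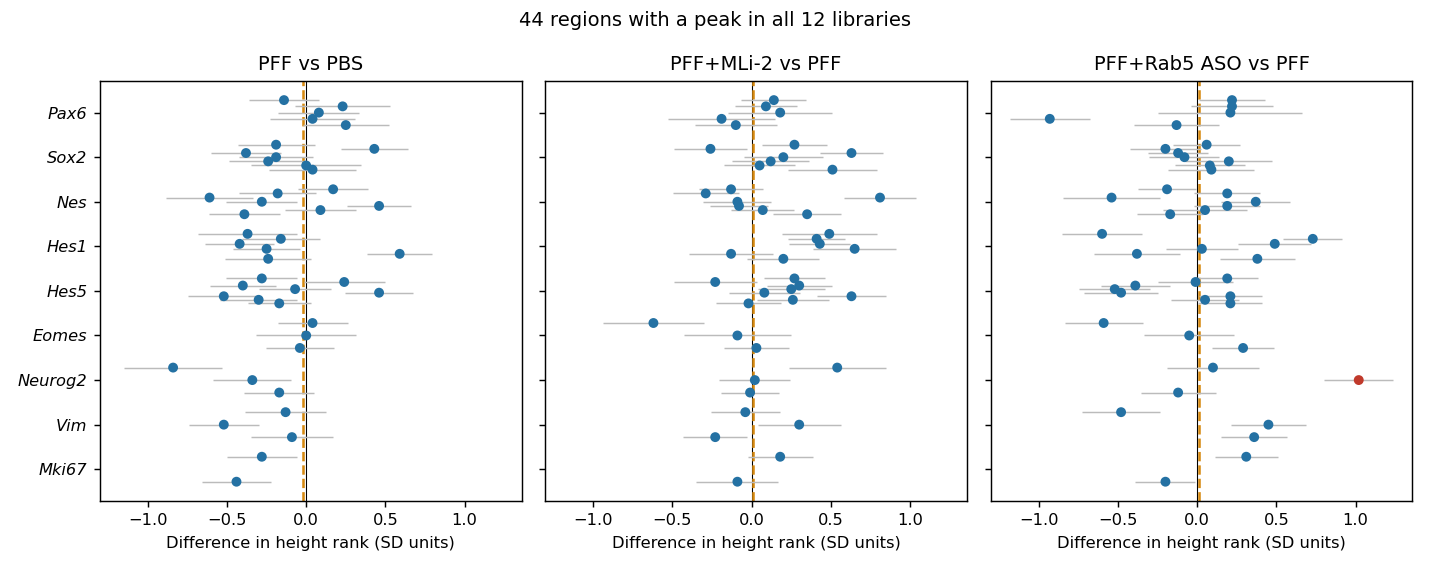
Difference in height rank (SD units, horizontal axis; bars are ± 1 SE) of each of the 44 regions called in 12 libraries, by gene, for 3 comparisons. The dashed line is the median over all 72465 regions, and the 1 red point, Neurog2 region 3 in PFF+Rab5 ASO against PFF (1.02), is the only difference with a limma adjusted p under 0.05.

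The third comparison, of Rab5 antisense treatment with fibrils against fibrils alone, gave the 1 height call. No region was gained or lost among 97, against 2.64% gained and 1.94% lost over all regions. By height limma called 1 of 44 as higher (2.27%, background 1.97%) and 0 as lower (background 1.86%), so the share was near the background. Unadjusted p was under 0.05 in 6 of 44, against 21.1% of all regions. The median difference was 0.06 in the 44. In 8 of the 44 every PFF+Rab5 ASO library lay above every PFF library (background 13.9%), and in 7 every one lay below (background 11.9%).

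The called region was Neurog2 region 3 (chr3:127632583-127632900), with its summit 356 bp upstream of the Neurog2 start site. Its percentiles were 26.8, 28.3 and 26.1 in PFF and 70.9, 64.4 and 46.2 in PFF+Rab5 ASO. All 3 oligonucleotide libraries were above all 3 PFF libraries, and the difference was 1.02 SD (SE 0.218, limma adjusted p = 0.0384). The call did not outlast the removal of any 1 of the 6 libraries, with limma adjusted p from 0.0568 to 0.109 and differences from 0.89 to 1.20, and it was also lost with the replicate number as a block (adjusted p = 0.0597) and with ranks by q (adjusted p = 0.0530). The PBS libraries spread from 21.6 to 58.3 and the PFF+MLi-2 libraries from 14.0 to 36.4. Against PBS the PFF+Rab5 ASO libraries overlapped. The main Neurog2 promoter region by height, region 6, has its summit 1148 bp past the start site. It had 85.8, 84.0 and 80.9 in PFF and 88.7, 72.1 and 83.1 in PFF+Rab5 ASO, which overlapped.

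Hes1 held the next largest difference of that direction. Hes1 region 2, 4.9 kb upstream of Hes1 (chr16:30059311-30059751), had percentiles of 53.6, 52.0 and 46.8 in PFF and 68.8, 71.6 and 70.9 in PFF+Rab5 ASO. The groups were well apart, but the difference of 0.73 SD (SE 0.187, limma adjusted p = 0.0617) did not pass. Hes1 region 1, 7.3 kb upstream of Hes1, went the other way, with 34.4, 35.9 and 55.7 in PFF and 15.4, 21.6 and 14.1 in PFF+Rab5 ASO (limma adjusted p = 0.202). The Hes1 promoter had 44.5, 53.7 and 60.3 in PFF+Rab5 ASO, above PFF without overlap (0.49 SD, SE 0.230, limma adjusted p = 0.254). The Hes5 promoter, at 33.9, 21.2 and 25.8, overlapped PFF.

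Lower values with the oligonucleotides were led by Pax6 region 15 (chr2:105715418-105715710), within Elp4. It had percentiles of 64.1, 76.2 and 76.9 in PFF and 48.0, 55.4 and 31.0 in PFF+Rab5 ASO. All 3 were below all PFF libraries, by -0.93 SD (SE 0.251, limma adjusted p = 0.0705). The neighbouring Pax6 region 16 overlapped between the groups. Eomes region 2, the Eomes promoter, had 78.5, 73.6 and 70.4 in PFF and 48.0, 70.3 and 57.6 in PFF+Rab5 ASO, a difference of -0.59 SD (SE 0.246, limma adjusted p = 0.206). Eomes region 6, at the Golga4 start, was higher without overlap (0.29 SD, SE 0.195). At the proliferation marker Mki67, the promoter stood at 97.6, 95.3 and 97.5 in PFF and 98.4, 98.7 and 98.3 in PFF+Rab5 ASO (0.31 SD, SE 0.199, limma adjusted p = 0.417), while region 6 upstream was lower without overlap.

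**Figure D5:**
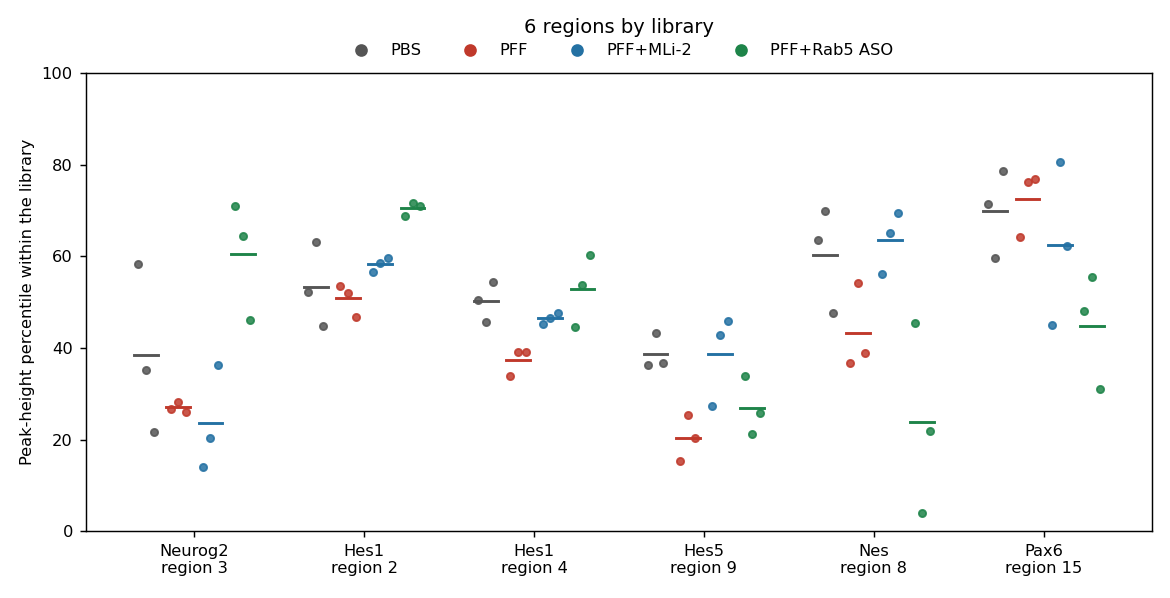
Peak-height percentile within the library (vertical axis) of 6 regions; points are libraries and bars the mean of the 3 libraries of a group. Neurog2 region 3 and Hes1 region 2 lie higher in PFF+Rab5 ASO than in PFF, Pax6 region 15 lies lower, and the Hes1 and Hes5 promoters (regions 4 and 9) are lowest in PFF on average.

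Against PBS, the treated groups gave few calls. In PFF+MLi-2 against PBS 1 of 85 regions was gained (1.18%, background 0.225%) and 0 lost (background 0.577%). The gained one was Sox2 region 20, 12.6 kb downstream of Sox2, with percentiles of only 3.84, 3.36 and 2.68. PFF had a peak there in 2 libraries and PFF+Rab5 ASO in 1. By height limma called 0 of 44 (background 0% higher and 0% lower), 2 of 44 had an unadjusted p under 0.05 (background 5.77%), and the libraries were apart in 3 regions on the higher side (background 3.12%) and 1 on the lower side (background 7.48%). The median difference was 0.00.

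In PFF+Rab5 ASO against PBS 0 of 96 regions were gained (background 2.59%) and 1 was lost (1.04%, background 0.991%). The lost one was Sox2 region 21, 13.0 kb downstream of Sox2, with percentiles of 0.563, 0.512 and 1.54 in PBS, at the bottom of those lists, and PFF and PFF+MLi-2 each had a peak there in 2 libraries. By height limma called 0 of 44, against 1.00% higher and 0.631% lower over all regions, and 12 of 44 had an unadjusted p under 0.05, against 18.7% of all regions. The libraries were apart in 4 regions on the higher side (background 13.3%) and 9 on the lower side (background 9.03%). Among the latter, Nes region 8 had 63.5, 69.8 and 47.6 in PBS and 45.5, 3.97 and 21.9 in PFF+Rab5 ASO, a difference of -1.16 SD (SE 0.333, limma adjusted p = 0.0989). Hes1 region 1 had 42.3, 60.2 and 54.7 in PBS against 15.4, 21.6 and 14.1, a difference of -0.97 SD (SE 0.268, limma adjusted p = 0.0892). Hes5 region 5, 12.5 kb upstream of Hes5, had 79.5, 71.8 and 74.4 against 59.5, 63.5 and 44.0, a difference of -0.79 SD (SE 0.216, limma adjusted p = 0.0871). Pax6 region 15 had 71.5, 59.7 and 78.5 against 48.0, 55.4 and 31.0, a difference of -0.89 SD (SE 0.251, limma adjusted p = 0.0931). None of the 4 passed the test. The main promoters of Hes5 (region 9, -0.31 SD, limma adjusted p = 0.496) and Sox2 (region 13, -0.27 SD, limma adjusted p = 0.515) were also among the 9.

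Across the 4 groups together, limma's test for any difference called 0 of the 44, against 3.50% of all regions, and 12 of 44 had an unadjusted p under 0.05, against 21.7%. The related lists were as quiet. No promoter of the 15 other radial glia and neural stem cell genes, 12 Notch pathway genes, 9 intermediate progenitor genes or 15 cell cycle genes was called by limma, gained or lost in any of the 5 comparisons. At an unadjusted p under 0.05, PFF+Rab5 ASO against PFF had 1, 1, 2 and 1 promoters of these lists in that order (21.1% of all regions), and PFF+Rab5 ASO against PBS had 1, 0, 1 and 0 (18.7% of all regions). PFF+MLi-2 against PFF had 0, 0, 1 and 1 (11.4% of all regions). PFF against PBS (9.72% of all regions) and PFF+MLi-2 against PBS (5.77%) had 0 in each list. Of the 9 genes' main promoters 1 was under 0.05 in each of the 3 comparisons other than those of the treated groups with PBS, where 0 were. The median PFF against PBS difference of their promoters was -0.12, -0.10, -0.19 and -0.12 in that order, against -0.18 for the 9 genes' main promoters and -0.08 over the promoter regions of all protein-coding genes. For PFF+MLi-2 against PFF the medians were 0.20, 0.16, 0.31 and 0.13 for the lists, 0.14 for the 9 genes and 0.09 for all protein-coding promoters. Among the markers of other cells, the only promoters that went from 0 of 3 to 3 of 3 libraries or the reverse were those of Tmem119 (microglia), lost in PFF+Rab5 ASO against PFF, and of Ins2, gained in PFF+Rab5 ASO against PBS; this leaves aside the partial shift of microglia promoters in PFF.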

How the data were processed

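Per the study's methods and the submitters' processing notes, reads were trimmed with Trim Galore 0.6.7, aligned to GRCm38 with Bowtie2 2.5.1, and peaks were called in each library with MACS2 2.2.7.1 without pooling of replicates. Peak options and the handling of duplicates and of the Tn5 offset are not given in the sources used here. The authors deposited peak lists with a fold enrichment (a ratio to the local background), -log10 p and -log10 q values, a score and a summit position, and no read counts, so the study's own test on reads was not run. Summit fragment numbers and backgrounds were recovered from fold and -log10 p, with the score checked as 10 times -log10 q.

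Ranks of fold enrichment were turned into normal scores over the 72465 regions with a peak in 12 libraries and tested with limma 3.58.1 (R 4.3.3) on the 6 libraries of each comparison, with Benjamini-Hochberg adjustment over all regions and a threshold of 0.05. The scripts were tested on simulated data. For the MLi-2 and ASO libraries the description field says PBS where title and treatment say PFF; title and treatment were followed. Per the methods a biological replicate was a pregnancy, whose cultures were divided at random among the groups; whether a replicate number marks the same litter in each group is not given in the sources used here. The 9 genes, the lists and the markers were chosen with earlier results of these data known. Named were each gene's main promoter region, its highest other region (1 is not reported here), every region gained, lost or called by limma, and, of the lists, called promoters and the highest and lowest; other regions were named after their values were seen, by lack of overlap or unadjusted p.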

Additional observations from a re-analysis of the deposited data

How the results depend on the processing

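Peak lists carry no read counts, so small differences in height are limited by 12 to 73 fragments at the summits of the tested regions. The 3 libraries a group leave wide errors. The number of regions was 107, and 54 with a window of 5 kb or 187 with 50 kb around each gene. The 1 region called by height in PFF+Rab5 ASO against PFF fell to 0 with ranks by -log10 q, with a replicate block, and without each of the 6 libraries in turn (0 to 0 called), when calls over all regions ranged from 0 to 995 (0 without PFF+Rab5 ASO replicate 1) against 2772. In PFF+Rab5 ASO against PBS a fit on all 12 libraries called 1, Hes5 region 5 (-0.79), and calls over all regions fell from 1184 to 0 with the block, as they did from 2772 to 1671 in PFF+Rab5 ASO against PFF. For the other comparisons the block and the leave-one-out fits (0 to 0 called) left the count at 0. Whether the replicate numbers pair the libraries by litter was not settled, and the main test has no block. Correlations of same-numbered libraries were 0.01 to 0.08 and those of other pairs -0.07 to 0.03. In every other group 9 of 12 libraries correlated best with their own number, and the cause of this pattern was not tested.

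Counts of gained or lost regions were small, and 16 of 30 alternatives that kept all libraries moved them and 14 did not; the cause was not tested. With at least 2 of 3 libraries against 0 of 3 there were 5 for PFF against PBS (5.62%, against 6.79% of all regions), 6 for PFF+MLi-2 against PFF (6.82% against 7.90%), 5 for PFF+Rab5 ASO against PFF (5.15% against 12.3%), 4 for PFF+MLi-2 against PBS (4.71% against 5.23%) and 3 for PFF+Rab5 ASO against PBS (3.12% against 10.7%). With the 50 kb window there were 2 for PFF against PBS, 4 for PFF+MLi-2 against PFF, 3 for PFF+Rab5 ASO against PFF and 2 for PFF+Rab5 ASO against PBS. With 5 kb there was 1 for PFF+MLi-2 against PFF and 0 for both treated groups against PBS. An equal number of top peaks gave 1 for PFF+MLi-2 against PFF and 0 for PFF+Rab5 ASO against PBS, and a -log10 q of at least 5 gave 0 for both treated groups against PBS. Without 1 library the 5 comparisons ranged from 1 to 3, 2 to 4, 0 to 3, 1 to 3 and 1 to 4.

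Small differences at main promoters changed sign, none of them called. Ranks by -log10 q gave -0.02 for Eomes region 2 and 0.01 for Vim region 6 in PFF against PBS. Without 1 library, Eomes region 2 (-0.11 to 0.16) and Vim region 6 (-0.33 to 0.05) in PFF against PBS, Neurog2 region 6 in PFF+MLi-2 against PFF (-0.06 to 0.03) and in PFF+Rab5 ASO against PFF (-0.29 to 0.11), and Sox2 region 13 in PFF+Rab5 ASO against PFF (-0.19 to 0.12) crossed 0. Hes1 region 4 and Hes5 region 9 kept their sign in PFF against PBS and in PFF+MLi-2 against PFF under every alternative run. In both comparisons the groups did not overlap by percentile at these regions, so leaving out 1 library could hardly reverse the sign. The kept sign therefore adds no support to these differences.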
